A study of Mus musculus with 6 samples.

Results

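The genes described here carry glucose and its products through the cell: glucose and lactate transporters, the enzymes of glycolysis, the pyruvate dehydrogenase complex with its kinases, the pentose phosphate and polyol pathways, the entry enzyme of the hexosamine pathway and glycogen synthase. They were chosen by name as a list of 38 genes. Rows with these symbols were found for 34 of them among 12911 genes listed in each library, and all 34 passed the filter on low counts. Hk2, Slc16a1, Aldoc and Gfpt2 had no row under their symbols and were not analysed here.

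RNA came from sorted glomerular endothelial cells, which line the capillaries of the kidney's filter, of mice that were all labelled eNOS-null, that is, without endothelial nitric oxide synthase. Its gene Nos3 nevertheless had 613, 749 and 667 CPM in STZ pools, against 847, 757 and 917 CPM in control pools; a count over the whole gene does not show which part was deleted, so these values do not check the genotype. The 3 STZ libraries were from mice given streptozotocin (STZ), which destroys the insulin-making beta cells and which the labels call a DM (diabetes) model, and the 3 control libraries from mice without treatment. Glomeruli were collected with magnetic beads and cells were sorted by EYFP fluorescence; RNA from 4 mice was combined in each library, so that every error and p-value here reflects differences between pools, not between single mice. The promoter that drove the EYFP label, and the strain, sex, age, STZ dose and glucose level of the mice, are not stated in the labels used here.

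Endothelial cells of many vessels are known to make much of their ATP by glycolysis rather than by respiration. Glucose enters through GLUT transporters, is split to pyruvate and leaves largely as lactate, while side branches lead to NADPH and ribose (pentose phosphate), to sorbitol and fructose (polyol), to UDP-N-acetylglucosamine (hexosamine) and to glycogen. The polyol and hexosamine branches are textbook routes of glucose overflow in diabetes, and cells that do not need insulin for glucose uptake, such as endothelial cells, are held to be exposed to it.

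Total counts were 10734376 to 12662371.5 in STZ libraries and 4387339 to 8751732.5 in control libraries, so every STZ library was deeper. Endothelial markers were present in all 6 libraries, the 6 listed ones summing to 14104 to 15261 CPM (edgeR's depth-scaled counts, on library sizes adjusted by TMM) in STZ pools and 9340 to 10641 CPM in control pools, with 4 called higher. Podocyte RNA was present too: 7 of 7 markers were tested, 0 were called, and they summed to 4593 to 5654 CPM in STZ pools and 4231 to 6696 CPM in control pools. Their median log2 fold change (STZ over control) was -0.43, with Podxl alone above 0, at 0.05. Podxl made up most of each sum, with 3323 to 3929 CPM in STZ pools and 2956 to 4021 CPM in control pools, so the sums mainly follow that 1 gene. The 9 mesangial and mural markers summed to 391 to 743 CPM in STZ pools and 1002 to 1106 CPM in control pools, with 1 called lower. Of 9 proximal tubule markers, 3 had a row, with 29.7 to 32.9 CPM in STZ pools and 30.2 to 32.9 CPM in control pools. Of 5 leukocyte markers, 3 had a row, with 51.8 to 57.2 CPM in STZ pools and 55.7 to 63.0 CPM in control pools. Ptprc made up most of each leukocyte sum and had a log2 fold change of -0.33, against 0.27 for Cd68 and 0.66 for Lyz2, with 0 called. In sorted bulk RNA, fewer cells of a type and less RNA per cell cannot be told apart, and the part of these other cells in the values given here was not tested except where stated. The groups also split by sex-linked genes: Xist stood at 0.387 to 0.865 CPM in STZ pools and 689.7 to 746 CPM in control pools, and the Y-linked Ddx3y at 131 to 139 CPM in STZ pools and 2.65 to 3.37 CPM in control pools. Effects of STZ and of sex therefore cannot be told apart.

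The sequence before the transcription start is shown for the members past the test (Pfkfb3 and Gapdh), for the late glycolytic genes Ldha and Pgk1 and, for contrast, for the glucose transporter gene Slc2a1, whose STZ libraries lay below the control libraries. Each line gives the 250 bases before the RefSeq start (GRCm38.p6, the assembly of mm10), 5′ to 3′ on the gene's strand, and capitals mark ACGTG or GCGTG on either strand, the core of the motif known to be bound by hypoxia-inducible factors. Where capitals read CACGTG, the E-box of MondoA and Myc-like factors, they hold ACGTG on both strands. The windows are chr2:11502091-11502340 (minus) for Pfkfb3, chr6:125165774-125166023 (minus) for Gapdh, chr7:46845554-46845803 (plus) for Ldha, chrX:106186850-106187099 (plus) for Pgk1 and chr4:119108495-119108744 (plus) for Slc2a1.
Pfkfb3: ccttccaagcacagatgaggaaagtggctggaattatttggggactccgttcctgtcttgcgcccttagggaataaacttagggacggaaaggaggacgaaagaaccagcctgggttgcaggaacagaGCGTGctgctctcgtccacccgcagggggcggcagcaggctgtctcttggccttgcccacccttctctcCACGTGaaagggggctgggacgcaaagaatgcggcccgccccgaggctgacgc
Gapdh: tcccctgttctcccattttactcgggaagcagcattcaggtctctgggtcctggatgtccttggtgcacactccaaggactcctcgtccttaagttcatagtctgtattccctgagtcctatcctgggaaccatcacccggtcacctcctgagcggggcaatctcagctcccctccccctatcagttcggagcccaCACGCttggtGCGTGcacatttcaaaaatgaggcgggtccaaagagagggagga
Ldha: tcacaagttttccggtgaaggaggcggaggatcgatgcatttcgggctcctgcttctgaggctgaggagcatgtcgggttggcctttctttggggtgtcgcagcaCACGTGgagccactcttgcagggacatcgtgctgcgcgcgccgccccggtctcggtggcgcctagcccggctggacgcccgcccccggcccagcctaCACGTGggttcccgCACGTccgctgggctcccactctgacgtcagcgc
Pgk1: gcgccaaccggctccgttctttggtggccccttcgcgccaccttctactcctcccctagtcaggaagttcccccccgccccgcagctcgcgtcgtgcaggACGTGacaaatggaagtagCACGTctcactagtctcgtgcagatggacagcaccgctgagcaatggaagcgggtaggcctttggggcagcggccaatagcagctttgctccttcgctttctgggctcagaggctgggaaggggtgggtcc
Slc2a1: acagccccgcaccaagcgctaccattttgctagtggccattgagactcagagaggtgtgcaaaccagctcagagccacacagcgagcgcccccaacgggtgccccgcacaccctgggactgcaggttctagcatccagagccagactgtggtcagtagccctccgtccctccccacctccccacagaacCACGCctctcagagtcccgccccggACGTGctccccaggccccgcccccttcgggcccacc

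Windows within 500 bases of the listed start were found for 31 members and for 9763 tested genes. ACGTG (both strands) occurred in 12 of the 31 member windows (38.7%) and in 21.9% of all windows. GCGTG occurred in 21 member windows (67.7%) and in 45.7% of all windows, and CACGTG, which overlaps ACGTG, in 3 member windows (9.68%), those of Pfkfb3, Ldha and Pdk2, and in 8.52% of all. ACGTG or GCGTG occurred in 26 member windows (83.9%), among them all those printed, and in 56.7% of all. Of the late glycolytic genes not printed, Pkm and Tpi1 had neither, Eno1 and Ldhb had GCGTG only, and Pgam1 had both. Median GC content was 61.6% in member windows and 60.0% in all. A match describes these letters and is no evidence of binding.

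In STZ pools Pfkfb3 and Gapdh rose, and no member fell past the test. Pfkfb3 makes the fructose bisphosphate that activates phosphofructokinase and is known as a driver of glycolysis in sprouting endothelium; Gapdh oxidises glyceraldehyde phosphate in the middle of the pathway. The other 32 members did not pass an adjusted p of 0.05 (edgeR quasi-likelihood test, two-sided, Benjamini-Hochberg over 12786 tested genes). Called in either direction were 2 of 34 members, against 9.78% of all tested genes. Called higher were 2 of 34 members (5.88%), against 5.47% of all tested genes called higher, and called lower were 0 of 34, against 4.32% of all tested genes. The share of members called higher was thus near that of all genes. At an unadjusted p under 0.05, 12 of 34 members were higher (35.3%), against 12.2% of all tested genes, and 3 of 34 lower (8.82%), against 12.0% of all tested genes. DESeq2 and limma-voom also called 2 members higher and 0 lower. Without STZ pool 2, edgeR called 6 members higher, adding Pgk1, Ldha, Pdk4 and Akr1b3, and without control pool 3 it called 1 lower, Pdk2.

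Small differences in the same direction were common in some branches. The 3 STZ libraries lay wholly above the 3 control libraries in 15 of 34 members (44.1%), against 15.4% of all tested genes, and wholly below in 2 members (5.88%), against 13.7% of all tested genes. Among 58 other tested genes of the same pathways, 3 were wholly above (5.17%) and 8 wholly below (13.8%). The median log2 fold change (STZ over control) was 0.07 over the 34 members and -0.01 over all tested genes. The members' median changed with the pools and the depth used. It was 0.18 without control pool 2, 0.03 without control pool 3 and 0.15 with all libraries thinned to the depth of the smallest. Without control pool 3, 6 members were wholly below. Median log2 fold changes were 0.29 for late or lower glycolysis (triose phosphate to lactate, 8 genes), 0.20 for the pentose phosphate pathway (4 genes) and 0.19 for the polyol pathway (2 genes). They were 0.07 for early or upper glycolysis (hexose steps, 9 genes), 0.00 for transport (3 genes), 0.00 for pyruvate dehydrogenase (6 genes), -0.34 for hexosamine (1 gene) and 0.01 for glycogen (1 gene). Several of these medians rested on single pools. With each pool left out in turn, late glycolysis ran from 0.24 to 0.34 and pentose phosphate from 0.17 to 0.22, but polyol stood at 0.05 without control pool 3 and 0.31 without control pool 2, and transport at -0.22 without control pool 3 and 0.43 without control pool 2. Pyruvate dehydrogenase stood at -0.07 without control pool 3 and 0.10 without control pool 1, and glycogen at -0.06 without STZ pool 3 and 0.09 without control pool 2. Hexosamine, a single gene, was at -0.23 without STZ pool 1. With the libraries thinned as above, early glycolysis stood at 0.01. Branches were compared by these descriptions only, since genes of a branch are not replicates.

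**Figure D1:**
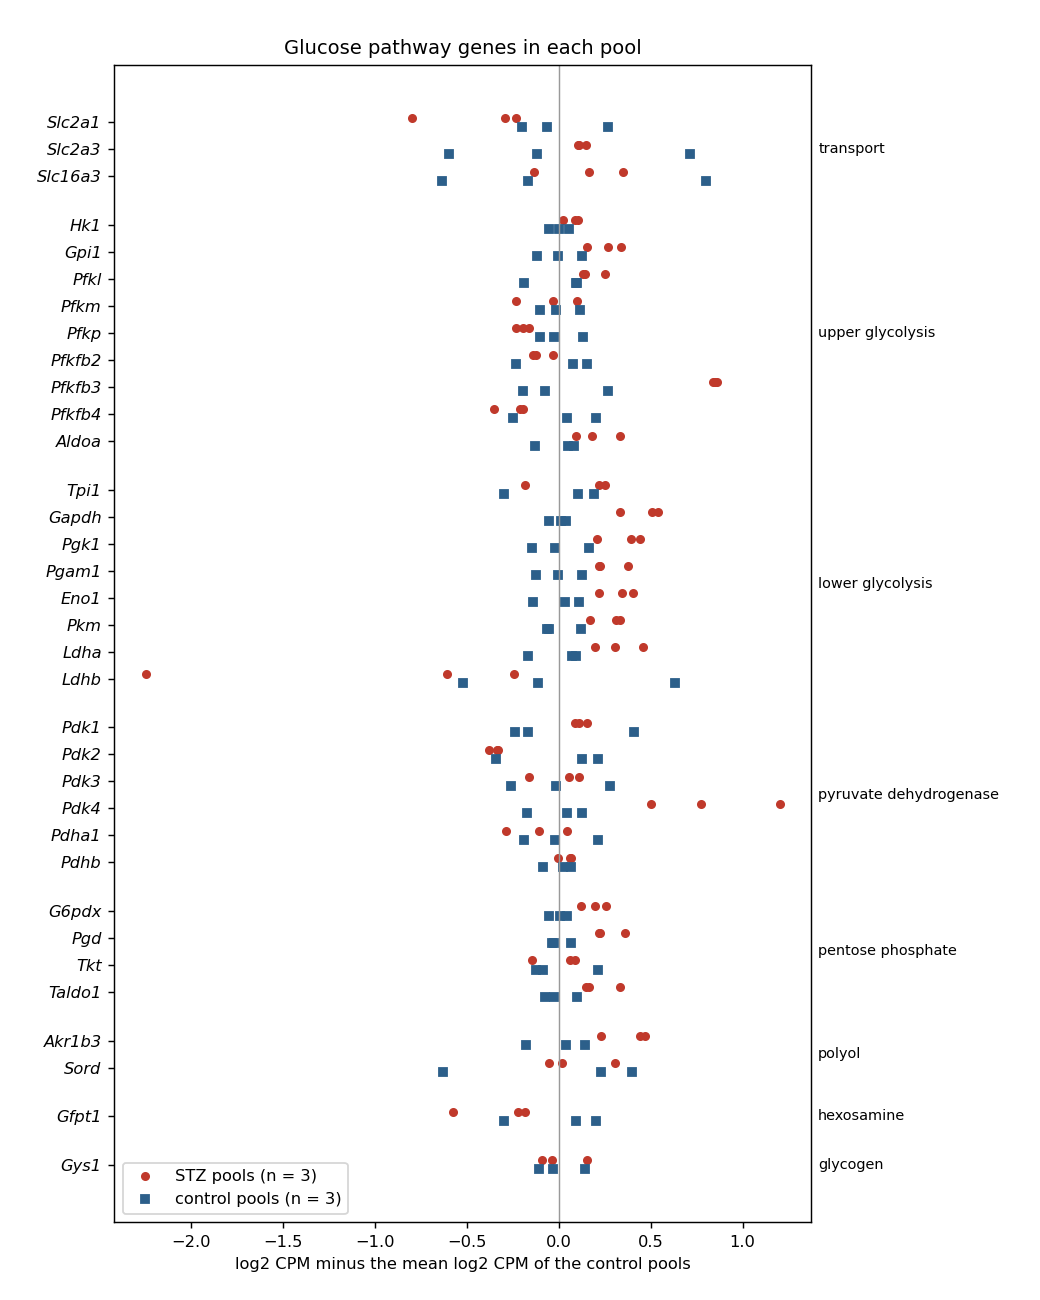
Each row is a gene, grouped by branch (right), and each point is a pool, placed by its log2 CPM minus the mean of the control pools; red circles are STZ pools and blue squares control pools (3 each). Pfkfb3 and most late glycolytic genes had all STZ pools to the right of all control pools, whereas Ldhb had the widest spread over the 6 pools, 10.5 to 77.7 CPM.

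Transport genes did not pass the test. Slc2a1 encodes GLUT1, the main glucose transporter of endothelium. It had 27.2, 19.1 and 28.3 CPM in STZ pools 1, 2 and 3, against 31.8, 40.0 and 28.9 CPM in control pools 1, 2 and 3. All STZ pools were below all control pools, but STZ pool 3 and control pool 3 nearly touched, and the log2 fold change was -0.44 ± 0.17 (SE; edgeR adjusted p = 0.132), or -0.28 without STZ pool 2. Slc2a3 (GLUT3, a high-affinity glucose transporter) and Slc16a3 (MCT4, a lactate exporter) were near 0, at 0.00 ± 0.26 and 0.00 ± 0.33 on the log2 scale. Their control pools were far apart: Slc2a3 had 12.96, 12.97 and 13.4 CPM in STZ pools, against 11.1, 19.8 and 7.95 CPM in control pools 1, 2 and 3, and Slc16a3 had 12.5, 17.5 and 15.4 CPM in STZ pools, against 12.2, 23.9 and 8.84 CPM in control pools. Control pool 2 was the highest and control pool 3 the lowest library for both genes, and the summed podocyte markers had the same 2 extremes (6696 CPM in control pool 2 and 4231 CPM in control pool 3). Control pool 1 differed: its podocyte sum, 6032 CPM, was above that of every STZ pool, whereas both genes were below every STZ pool there. The part of podocytes in these values was not tested.

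Early glycolysis held the gene with the smallest p of all members. Pfkfb3 (NM_001177757; mm10 chromosome 2, 11471431 to 11502090, minus strand) had 106, 105 and 107 CPM in STZ pools, against 71.0, 55.9 and 51.5 CPM in control pools. The STZ pools were nearly equal and all above the control pools, of which pool 1 was the highest. Means were 106 ± 0.772 CPM in STZ pools and 59.5 ± 10.2 CPM in control pools (SD, n = 3 each), a log2 fold change of 0.83 ± 0.11 (SE; edgeR adjusted p = 0.000455), and the call held under all 13 alternatives, from 0.74 to 0.98.

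The other bifunctional isoforms, which set the same activator, did not pass. Pfkfb2, known from heart and kidney, had 19.8, 20.1 and 21.4 CPM in STZ pools, against 23.1, 18.6 and 24.3 CPM in control pools, so the groups overlapped (log2 fold change -0.10 ± 0.14). Pfkfb4 likewise overlapped, with 13.3 to 14.9 CPM in STZ pools and 14.4 to 19.6 CPM in control pools (-0.27 ± 0.16). Within a pool, the log2 ratio of Pfkfb3 to Pfkfb2 was 2.41, 2.38 and 2.31 in STZ pools, against 1.61, 1.57 and 1.08 in control pools, a difference of 0.95 ± 0.18 (SE; exact two-sided permutation p = 0.1, the smallest that 3 against 3 allow). All 3 STZ ratios were above all control ratios.

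Phosphofructokinase itself, the committing enzyme that the product of Pfkfb3 activates, was split between isoforms. Pfkl, the liver type, had 60.1, 59.7 and 64.9 CPM in STZ pools, against 47.7, 58.0 and 58.3 CPM in control pools. Pfkp, the platelet type, went the other way, with 55.7, 54.3 and 57.0 CPM in STZ pools, against 59.3, 62.6 and 69.8 CPM in control pools. For both the groups did not overlap, yet neither passed the test (log2 fold changes 0.18 ± 0.10 and -0.19 ± 0.10). Pfkl was at 0.08 without control pool 1, the low one, and Pfkp was at -0.13 without control pool 3. Their log2 ratio, Pfkl to Pfkp, was 0.11, 0.14 and 0.19 in STZ pools, against -0.31, -0.11 and -0.26 in control pools, so that Pfkl counts exceeded Pfkp counts in each STZ pool and in no control pool (difference 0.37 ± 0.06, SE; exact permutation p = 0.1). Pfkm, the muscle type, overlapped between groups (-0.06 ± 0.12). Per kilobase the isoforms were expressed at like levels, 16.6, 14.5 and 13.8 CPM per kb for Pfkl, Pfkm and Pfkp in STZ pools and 14.7, 15.0 and 15.9 CPM per kb in control pools.

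The remaining early steps did not pass either. Gpi1, glucose phosphate isomerase, had 491, 432 and 467 CPM in STZ pools, against 424, 387 and 357 CPM in control pools, without overlap (0.25 ± 0.10, edgeR adjusted p = 0.137). Aldoa, the main aldolase, had 556, 469.6 and 499.95 CPM in STZ pools, against 455, 466 and 403 CPM in control pools, again without overlap but with STZ pool 2 close to control pool 2 (0.20 ± 0.10, adjusted p = 0.238 by edgeR). Hk1, the hexokinase that traps glucose in the cell, overlapped and was among the least variable members, at 157 to 166 CPM in STZ pools and 149 to 160.5 CPM in control pools (0.07 ± 0.08).

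**Figure D2:**
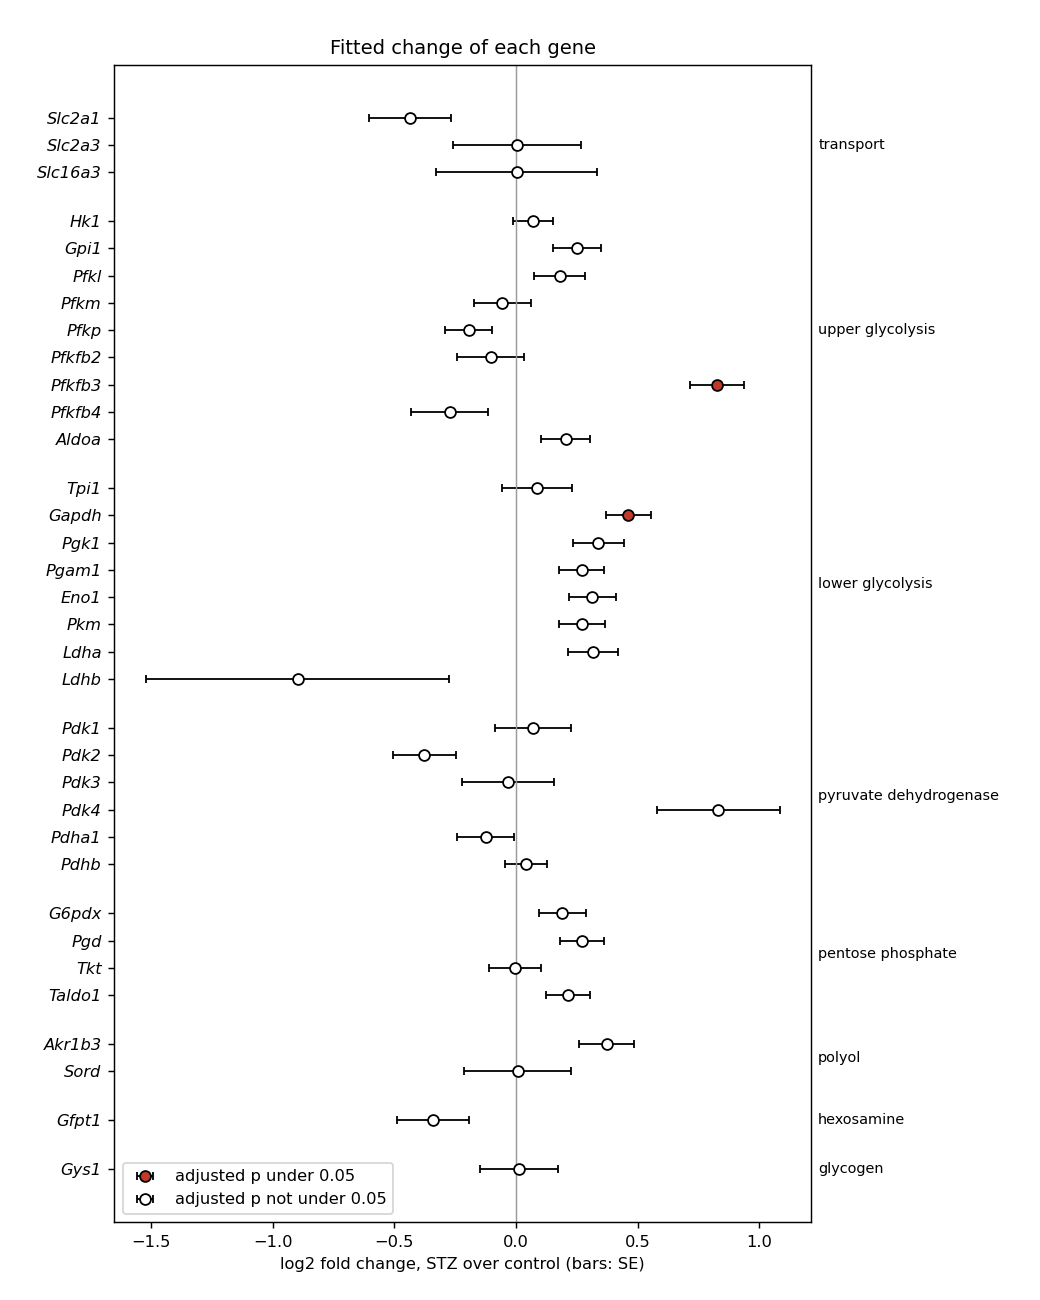
Fitted log2 fold changes of STZ over control for the 34 genes by branch, with bars for the SE; filled points are genes called by edgeR (adjusted p under 0.05). Pfkfb3 (0.83) and Gapdh (0.46) are filled, and 6 of the 8 late glycolytic genes stand between 0.27 and 0.46.

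In late glycolysis Gapdh rose. Gapdh (NM_008084; mm10 chromosome 6, 125161852 to 125165773, minus strand) had 294, 255 and 288 CPM in STZ pools, against 205, 208 and 195 CPM in control pools. The groups were well apart, with means of 279 ± 21.2 CPM in STZ pools and 203 ± 7.02 CPM in control pools (SD, n = 3 each) and a log2 fold change of 0.46 ± 0.09 (SE; edgeR adjusted p = 0.00590). Its call held under all 13 alternatives, with log2 fold changes of 0.42 to 0.52 and adjusted p from 0.000243 (DESeq2) to 0.0412 (edgeR without STZ pool 1). Gapdh is a common reference gene for PCR; here it differed between the groups by 1.38-fold.

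Pgk1, Pgam1, Eno1, Pkm and Ldha, the enzymes that follow Gapdh down to lactate, each had all STZ pools above all control pools and each missed the threshold. Pgk1, which makes ATP from bisphosphoglycerate, had 93.7, 79.7 and 90.6 CPM in STZ pools, against 77.5, 68.1 and 62.3 CPM in control pools (0.34 ± 0.10, edgeR adjusted p = 0.0590). Eno1, enolase, had 92.8, 81.5 and 89.1 CPM in STZ pools, against 75.7, 71.8 and 63.6 CPM in control pools (0.31 ± 0.10, edgeR adjusted p = 0.0588). Ldha, the lactate dehydrogenase subunit that favours lactate formation, had 236, 196 and 211 CPM in STZ pools, against 183, 180.2 and 152 CPM in control pools (0.32 ± 0.10, edgeR adjusted p = 0.0724). In these 3 genes STZ pool 2 was the lowest STZ pool and control pool 3 the lowest control pool. Pkm, pyruvate kinase, and Pgam1, phosphoglycerate mutase, stood at 0.27 ± 0.09 each (edgeR adjusted p = 0.0923 and 0.0914). Without STZ pool 2, Pgk1 (adjusted p = 0.0394) and Ldha (adjusted p = 0.0489) passed in edgeR. Several of these genes, Gapdh, Pgk1, Eno1, Ldha and Aldoa among them, have processed copies in the mouse genome that are near-identical, and how reads shared with such copies were counted is not stated in the labels used here.

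Tpi1, triose phosphate isomerase, was the late gene without Ldhb's spread that overlapped, with 71.1, 53.7 and 72.7 CPM in STZ pools, against 65.7, 69.5 and 49.7 CPM in control pools (0.09 ± 0.15). Beside these values, the 6 endothelial markers had a median log2 fold change of 0.45 (4 called higher) and the 9 mesangial and mural markers one of -0.79 (1 called lower); the part of cell mixture in the late glycolytic values was not tested.

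Ldhb, the lactate dehydrogenase subunit of oxidative tissues, had 32.8, 10.5 and 42.2 CPM in STZ pools, against 46.3, 77.7 and 34.9 CPM in control pools. Its lowest and highest libraries differed more than those of any other member shown, the groups overlapped, and it did not pass (log2 fold change -0.90 ± 0.62, edgeR adjusted p = 0.476), being at -0.50 without STZ pool 2. The distal tubule markers with a row, Umod, Slc12a1 and Slc12a3 (3 of the 4 listed), summed to 103, 10.6 and 179 CPM in STZ pools, against 239, 413 and 102 CPM in control pools, with 1 of 3 called lower. STZ pool 2 was thus the lowest and control pool 2 the highest library for Ldhb and for these markers alike, and only STZ pool 1 and control pool 3, nearly equal in both, changed order. The part of tubule RNA in Ldhb was not tested. The log2 ratio of Ldha to Ldhb was 2.84, 4.19 and 2.32 in STZ pools, against 1.98, 1.21 and 2.12 in control pools, without overlap (difference 1.34 ± 0.63, SE; exact permutation p = 0.1; 0.81 without STZ pool 2).

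**Figure D3:**
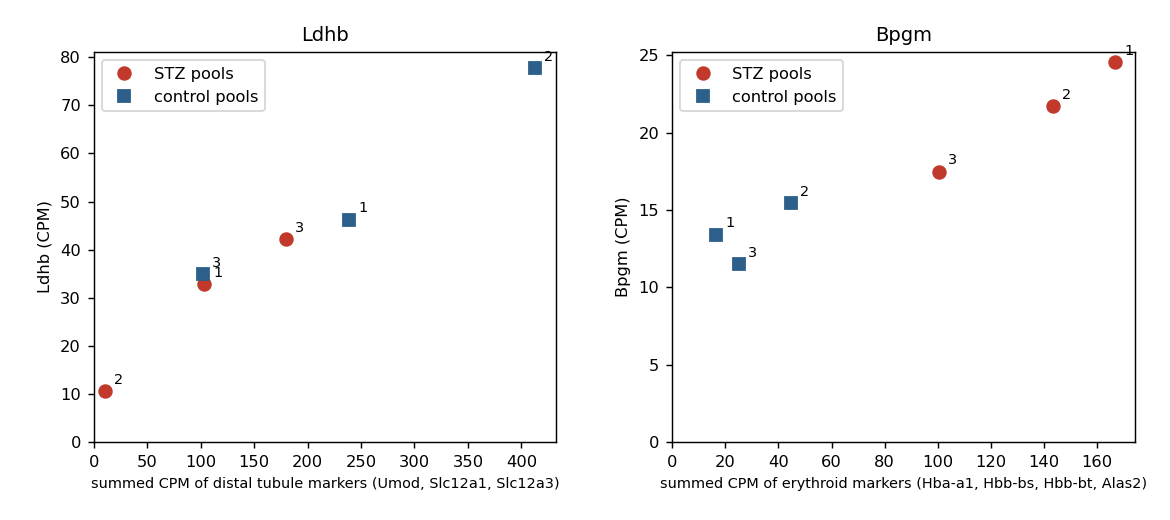
Left, CPM of Ldhb against the summed CPM of the distal tubule markers; right, CPM of Bpgm against the summed CPM of the erythroid markers, with the pool number beside each point (red circles STZ, blue squares control). Ldhb ran from 10.5 CPM in STZ pool 2 to 77.7 CPM in control pool 2, the pools with the lowest and highest distal tubule sums, and the 3 STZ pools had the highest values of both Bpgm and the erythroid sum.

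Subunits of the pyruvate dehydrogenase complex, which feeds pyruvate into mitochondrial respiration, did not pass: Pdhb stood at 85.4 to 89.8 CPM in STZ pools and 80.8 to 89.8 CPM in control pools (0.04 ± 0.09), and Pdha1 at 63.8 to 80.2 CPM in STZ pools and 68.3 to 90.3 CPM in control pools (-0.12 ± 0.12). Its inhibitory kinases differed from each other. Pdk4, the isoform known to be induced by fasting and glucocorticoids, had 6.38, 5.27 and 8.58 CPM in STZ pools, against 4.07, 3.85 and 3.31 CPM in control pools. All STZ pools were above all control pools, and deposited counts of 61 to 106 in STZ pools and 15 to 37 in control pools lay behind these values. The log2 fold change was 0.83 ± 0.25, as large as that of Pfkfb3, but with an edgeR adjusted p of 0.0548 it did not pass; without STZ pool 2 it stood at 0.98 with an adjusted p of 0.0337.

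Pdk2, the most abundant of the kinases, had 42.5, 41.2 and 42.7 CPM in STZ pools, against 58.7, 62.2 and 42.4 CPM in control pools. Control pool 3 lay among the STZ pools, and the log2 fold change of -0.38 ± 0.13 did not pass (edgeR adjusted p = 0.0879). Without control pool 3 it was -0.51 and passed (adjusted p = 0.00556 by edgeR). Pdk1, a hypoxia-induced kinase, and Pdk3 overlapped between groups (0.07 ± 0.16 and -0.03 ± 0.19). The log2 ratio of Pdk4 to Pdk2 was -2.70, -2.92 and -2.29 in STZ pools, against -3.78, -3.94 and -3.59 in control pools, a difference of 1.14 ± 0.21 without overlap (SE; exact permutation p = 0.1). Even so, Pdk2 remained far above Pdk4 per length, at 18.6 against 1.95 CPM per kb in STZ pools and 24.0 against 1.08 CPM per kb in control pools.

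**Figure D4:**
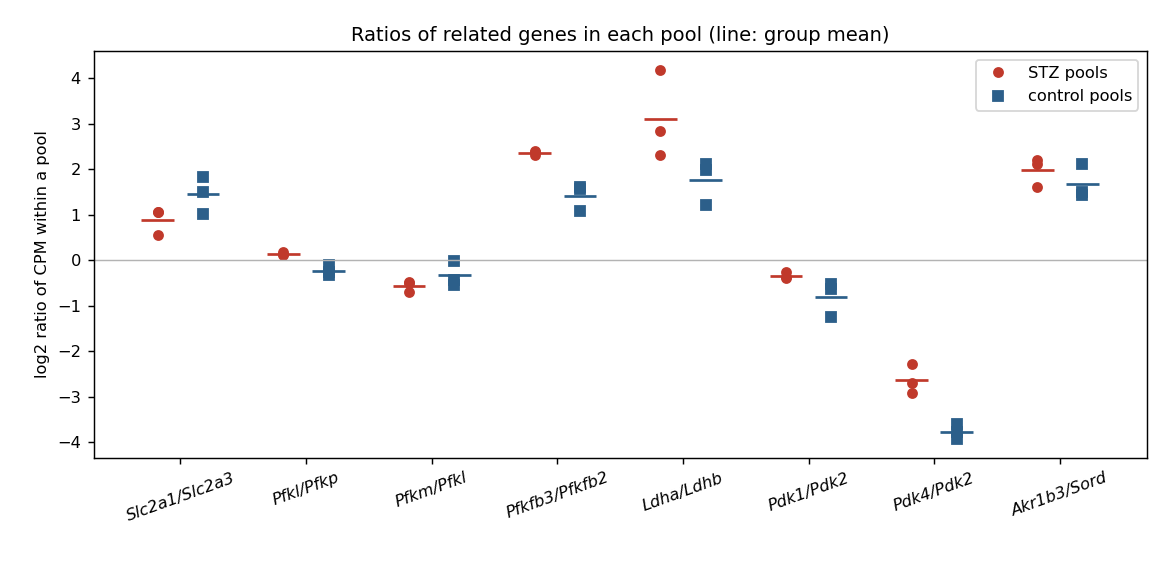
Points are log2 ratios of CPM of related genes within a pool (red circles STZ, blue squares control, lines group means; 3 pools each). Pfkl/Pfkp, Pfkfb3/Pfkfb2, Ldha/Ldhb, Pdk1/Pdk2 and Pdk4/Pdk2 had all STZ pools above all control pools, each with an exact permutation p of 0.1.

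Of the 12 pairs of related genes set out for comparison, 8 had both rows. In 5 the STZ ratios lay wholly above the control ratios (the 4 given and Pdk1 to Pdk2, with a difference of 0.46 ± 0.23, or 0.24 without control pool 2). Left out in turn, the pools moved Pfkl to Pfkp between 0.33 and 0.43, Pfkfb3 to Pfkfb2 between 0.77 and 1.04 and Pdk4 to Pdk2 between 0.96 and 1.28. The other 3, Slc2a1 to Slc2a3 (-0.55 ± 0.29), Pfkm to Pfkl (-0.23 ± 0.17) and Akr1b3 to Sord (0.29 ± 0.29), overlapped with an exact permutation p of 0.3 each. They stood at -0.36 without control pool 3, -0.08 without control pool 1 and 0.17 without control pool 2, in the same order. Adjusted over the 8 ratios, p was 0.16 for the 5 pairs without overlap and 0.3 for the other 3, and with 3 pools a side no ratio could pass 0.05.

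None of the 4 pentose phosphate genes passed in edgeR, while 3 of them had STZ pools wholly above control pools. Pgd, which makes NADPH from phosphogluconate, had 73.3, 80.8 and 73.3 CPM in STZ pools, against 61.8, 61.2 and 65.8 CPM in control pools (0.27 ± 0.09, edgeR adjusted p = 0.0818). G6pdx, the entry enzyme and main source of NADPH, had 52.0, 49.4 and 54.3 CPM in STZ pools, against 46.8, 43.8 and 45.7 CPM in control pools (0.19 ± 0.10). Taldo1, transaldolase, had 158, 141 and 139 CPM in STZ pools, against 119, 135 and 124 CPM in control pools (0.21 ± 0.09). In all 3 every STZ pool was above every control pool. Tkt, transketolase, the other enzyme of the reversible arm, overlapped (0.00 ± 0.11). The 6 further pentose phosphate genes tested, which are not members, did not lean the same way. Their median log2 fold change was -0.08, with 4 of 6 below 0 and 0 called. STZ pools lay wholly above control pools in 1 of them and wholly below in 2.

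The X-linked members are given together because of the split in Xist. Pgk1 and G6pdx stood at 0.34 and 0.19 on the log2 scale, Pdha1 and Pdk3 stood at -0.12 and -0.03, and none of the 4 passed in edgeR.

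In the polyol pathway Akr1b3, aldose reductase, which turns glucose to sorbitol, had 61.8, 52.3 and 60.5 CPM in STZ pools, against 45.8, 49.1 and 39.3 CPM in control pools. The groups did not overlap, with STZ pool 2 the lowest STZ pool and control pool 2 the highest control pool. Its log2 fold change of 0.37 ± 0.11 just missed the threshold (edgeR adjusted p = 0.0536) and passed without STZ pool 2 (0.44, adjusted p = 0.0331) or without control pool 2 (0.44, adjusted p = 0.0431). Sord, which turns sorbitol to fructose, had 13.1, 16.9 and 13.8 CPM in STZ pools, against 16.0, 17.99 and 8.84 CPM in control pools, and was at 0.01 ± 0.22.

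Gfpt1, the rate-limiting enzyme of the hexosamine pathway, had 24.6, 31.4 and 32.3 CPM in STZ pools, against 39.1, 42.2 and 29.8 CPM in control pools. Control pool 3 overlapped the STZ pools, and the log2 fold change of -0.34 ± 0.15 did not pass (edgeR adjusted p = 0.179). Gys1, the glycogen synthase of tissues other than liver, was at 0.01 ± 0.16.

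**Figure D5:**
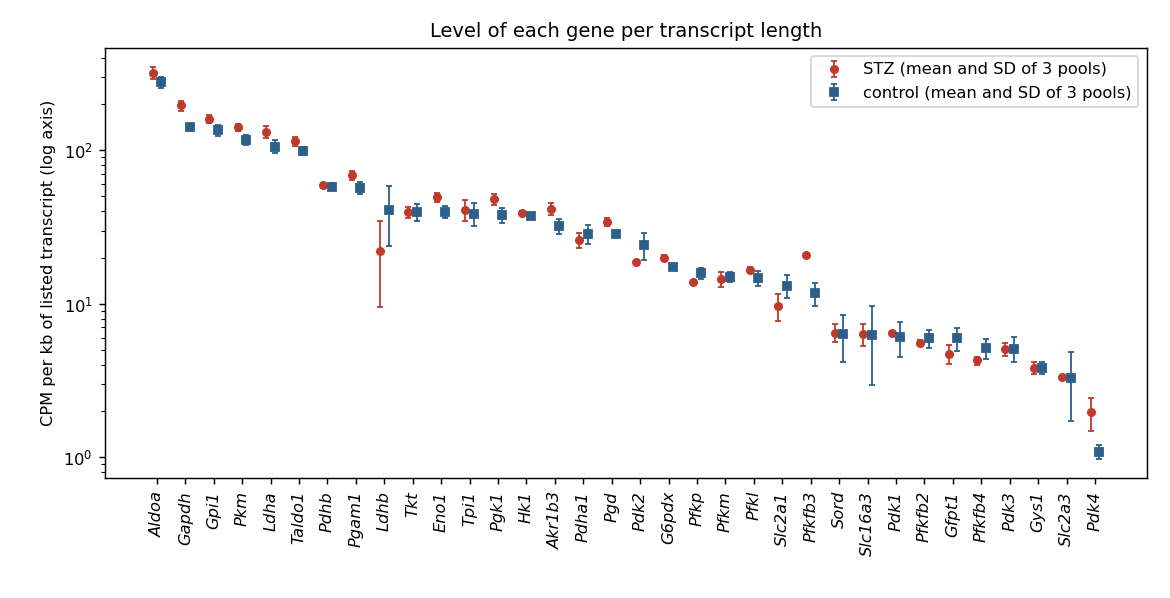
Mean CPM per kb of listed transcript (log axis) with SD over 3 pools, red circles STZ and blue squares control, genes ordered by the control mean. Aldoa led with 320 CPM per kb in STZ pools and 278 in control pools, and Pdk4 was last with 1.95 in STZ pools and 1.08 in control pools.

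Divided by the length of the listed transcript, the levels stood in a similar order in both groups. Aldoa, Gapdh, Gpi1, Pkm, Ldha and Taldo1 held the top 6 places in STZ and in control pools. Aldoa stood at 320 ± 27.4 CPM per kb in STZ pools and 278 ± 21.4 CPM per kb in control pools, and Gapdh at 196 ± 14.9 CPM per kb in STZ pools and 143 ± 4.94 CPM per kb in control pools (SD, n = 3 each). Of the neighbours among these 6 genes, Pkm and Ldha in STZ pools (141 ± 8.41 and 132 ± 12.3 CPM per kb) differed by less than the larger of their SDs. So did, in control pools, Gapdh and Gpi1 (143 ± 4.94 and 135 ± 11.5 CPM per kb) and Ldha and Taldo1 (106 ± 10.4 and 98.9 ± 6.31 CPM per kb). Pfkfb3 held place 18 of 34 in STZ pools and place 24 in control pools, at 20.8 ± 0.151 CPM per kb in STZ pools and 11.7 ± 2.01 CPM per kb in control pools. Ldhb stood at place 17 in STZ pools and at place 9 in control pools. GLUT1 transcripts (Slc2a1), at 9.67 ± 1.95 CPM per kb in STZ pools and 13.05 ± 2.23 CPM per kb in control pools, exceeded those of GLUT3 (Slc2a3), at 3.31 ± 0.0571 and 3.27 ± 1.54 CPM per kb in STZ and control pools. How a gene's count was summarised over its transcripts is not stated in the labels used here, which limits these levels for genes with several, such as Pfkfb3.

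Summed over a branch, late glycolysis held 1313, 1118 and 1268 CPM in STZ pools, against 1028, 1098 and 927 CPM in control pools, and early glycolysis 1509, 1357 and 1435 CPM in STZ pools, against 1299, 1271 and 1167 CPM in control pools. Both sums were higher in each STZ pool than in each control pool. Aldoa and Gpi1 made up most of the early sum in each pool, and 4 of its 9 genes had log2 fold changes below 0. The pentose phosphate sum overlapped narrowly, with 419, 386 and 399.8 CPM in STZ pools, against 345, 388 and 355 CPM in control pools. For pyruvate dehydrogenase genes the STZ sums lay inside the range of the control sums, with 240.5 to 261 CPM in STZ pools and 237 to 282 CPM in control pools.

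Beyond the members, 76 further genes of the same pathways were listed, of which 58 were tested. Called higher was 1 (1.72%, against 5.47% of all tested genes) and called lower were 3 (against 4.32% of all tested genes), and the median log2 fold change was -0.05. At an unadjusted edgeR p under 0.05, 2 were higher (3.45%, against 12.2% of all tested genes) and 11 lower (19.0%, against 12.0%). Bpgm, which makes the bisphosphoglycerate that loosens oxygen from haemoglobin in red cells, had 24.6, 21.7 and 17.5 CPM in STZ pools, against 13.4, 15.4 and 11.5 CPM in control pools (0.65 ± 0.17, edgeR adjusted p = 0.0288). The 4 erythroid markers (Hba-a1, Hbb-bs, Hbb-bt and Alas2) summed to 167, 143 and 100.4 CPM in STZ pools, against 16.7, 44.7 and 25.2 CPM in control pools, with 3 of 4 called higher; the part of red cell RNA in Bpgm was not tested. Within STZ pools, Bpgm and the erythroid sum had the same order. Within control pools they did not, since pool 3 was the lowest for Bpgm and pool 1 for the erythroid sum.

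The 3 genes that fell belong to the side branches. Gnpnat1, which acetylates glucosamine phosphate in the hexosamine pathway, had 21.7, 23.5 and 23.2 CPM in STZ pools, against 27.0, 37.7 and 35.1 CPM in control pools (-0.54 ± 0.14, edgeR adjusted p = 0.0283). Nagk, which returns N-acetylglucosamine to that pathway, had 32.5, 34.5 and 31.8 CPM in STZ pools, against 47.4, 41.4 and 43.3 CPM in control pools (-0.42 ± 0.11, edgeR adjusted p = 0.0258). The other hexosamine genes tested did not pass: Ogt, the transferase that uses the end product (-0.31 ± 0.11, edgeR adjusted p = 0.106), Uap1 (-0.08), Mgea5 (-0.02), Pgm3 (0.04) and Amdhd2 (0.22). Pygm, the muscle type of glycogen phosphorylase, had 40.3, 42.4 and 39.3 CPM in STZ pools, against 53.7, 48.3 and 53.9 CPM in control pools (-0.35 ± 0.10, edgeR adjusted p = 0.0419).

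None of these 4 calls held throughout. In edgeR Bpgm lost its call without STZ pool 1 (adjusted p = 0.156), STZ pool 2 (0.0598), control pool 1 (0.108) or control pool 3 (0.0626), and Gnpnat1 without STZ pool 1 (0.118), STZ pool 3 (0.0715), control pool 2 (0.105) or control pool 3 (0.0610). Nagk lost it without STZ pool 1 (edgeR adjusted p = 0.111), STZ pool 3 (0.0985) or control pool 1 (0.119), and Pygm without STZ pool 1 (0.155), STZ pool 2 (0.0550), STZ pool 3 (0.147), control pool 1 (0.144) or control pool 3 (0.0860). By limma-voom Bpgm (adjusted p = 0.0533) and Gnpnat1 (0.0513) did not pass, nor did Pygm by DESeq2 (0.0685).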

How the data were processed

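The deposited tables hold 1 expected count per gene and library, with RefSeq accession, coordinates and transcript length per the file headers. Build mm10 and the tool limma come from the submitters' processing notes; aligner, counter, strand setting and gene filter: not given in the sources used here. Values were multiples of 0.5 (2251 genes had a fraction) and were rounded to whole counts. The 34 blank cells were read as 0. Listed starts plus 1 equalled the RefSeq start in 3957 of 6151 genes with a matching end, so 1 was added.

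The test was the robust two-sided quasi-likelihood F test of edgeR 4.0.16 (R 4.3.3) after filterByExpr and TMM scaling; p-values were adjusted by Benjamini-Hochberg across 12786 genes, and 0.05 was the threshold. The biological coefficient of variation was 0.117. Ratios used log2 CPM with a prior count of 2 and exact permutation tests. Alternatives were other scalings, no filter, DESeq2 1.42.0, limma-voom (limma 3.58.1), a replicate block, thinning to the smallest library and leaving out each library. Total counts of 4387339 to 12662371.5 set the precision. Members and lists were chosen with earlier results of these data known. All members are named, and other pathway genes where called, which was the rule for named genes. Nos3, Podxl, the 3 tested leukocyte markers and the 5 other tested hexosamine genes were added after their values were seen.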

Additional observations from a re-analysis of the deposited data

How the results depend on the processing

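Pfkfb3 and Gapdh kept their direction and their call under all 13 alternatives. The number of members called higher ran from 2 to 6 and called lower from 0 to 1 when 1 pool was left out, the extremes being those without STZ pool 2 and without control pool 3. Of the other pathway genes, 0 to 1 were called higher and 0 to 3 lower with 1 pool left out. Those called lower without control pool 2 (3 genes) and without control pool 3 (2 genes) were not all among Gnpnat1, Nagk and Pygm. By limma-voom and after thinning, 0 were higher, and 1 was lower after thinning and with a replicate block. With 1 pool left out, members with STZ pools wholly above control pools numbered 15 to 18 and wholly below 2 to 6, and 1 was wholly below after thinning. The members' median log2 fold change ran from 0.0270 to 0.180, the highest without control pool 2.

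The replicate block left 2 members called higher and 0 lower, and the 1 further pathway gene called lower under it was Gnpnat1, since Nagk (adjusted p = 0.0542) and Pygm (0.0827) were not called. Pools with the same number in the sample titles deviated together in 1 of 3 pairs (correlations 0.119, -0.128 and -0.163). Differently numbered pools had correlations of -0.243 to 0.295. With 3 pools a group, such correlations cannot show whether the numbers pair the samples. The labels do not say that they do, and the numbers in the headers of the control columns do not all match those of the titles.

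Signs turned, in edgeR and for members that never passed, in 29 results of 10 genes. With upper-quartile scaling these were Slc2a3 (-0.0120), Slc16a3 (-0.0151), Sord (-0.0111) and Gys1 (-0.00389), and after thinning Pdk1 (-0.0376), Pdk3 (0.234), Sord (-0.0515) and Gys1 (-0.0799). With 1 pool left out, some values turned for 10 genes, whose ranges were -0.207 to 0.426 for Slc2a3, -0.223 to 0.494 for Slc16a3, -0.138 to 0.0281 for Pfkm, -0.0337 to 0.212 for Tpi1, -0.0532 to 0.323 for Pdk1, -0.136 to 0.133 for Pdk3, -0.00203 to 0.0750 for Pdhb, -0.0685 to 0.111 for Tkt, -0.208 to 0.183 for Sord and -0.0647 to 0.0891 for Gys1. The cause was not tested. The smallest library, 4387339 counts, limits the low genes most, Pdk4 having 15 counts there.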
